A study of Oryctolagus cuniculus with 6 samples.

Results

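The 8 genes described here encode the neuregulin and ErbB receptor axis and were selected by their symbols, with earlier results of these data known. NRG1, HBEGF and AREG encode ligands, ERBB2, ERBB3 and EGFR encode receptors, and ADAM17 and BACE1 encode proteases that cut ligand precursors at the cell surface. They are 8 of the 17396 genes listed in the count files, and all 8 were found there by their symbol. The libraries came from the facial nerve of wild-type male Japanese white rabbits aged 3 to 4 months. In both groups the main trunk of this nerve was cut, and tissue was harvested on day 14. The FNI group (facial nerve injury) had the transection alone, and the FNI+I-125 group also had an iodine-125 seed of 0.8 mCi, a sealed source of low-energy radiation, placed beside the nerve. Each group had 3 rabbits with 1 library each. The control group thus carried the same injury, and uninjured nerve was not analysed here.

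Neuregulin 1 is the main axonal signal that controls the survival, migration and myelination of Schwann cells, the glia of peripheral nerve. It binds ErbB3, whose own kinase is weak, and ErbB3 signals as a heterodimer with ErbB2, which has no known ligand of its own. EGFR binds another set of ligands, among them heparin-binding EGF (HBEGF) and amphiregulin (AREG), and can also pair with ErbB2. BACE1 and ADAM17 both cut neuregulin 1, and ADAM17 is also the main protease that releases HBEGF and AREG. Neurons make the axonal form of neuregulin 1 in cell bodies that lie outside the harvested nerve, and Schwann cells and other nerve cells make neuregulin 1 of their own after injury.

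The total count ran from 16031151 to 16798012 per library, and values below are CPM (a gene's counts relative to the total count of its library, with TMM normalization factors of 0.923 to 1.06). The labelled tissue was checked against its defining markers. All 13 Schwann cell markers were detected, with summed levels of 4740 to 38700 CPM in the FNI group and 953 to 4260 CPM in the FNI+I-125 group, and their mean log2 CPM did not overlap between the groups. Neuronal cell body markers summed to 0.98 to 4.37 CPM in all libraries. The 11 neutrophil and macrophage markers summed to 161 to 794 CPM in the FNI group and to 1250 to 2380 CPM in the FNI+I-125 group, again with no overlap in mean log2 CPM. Some libraries stood apart within their group. FNI replicate 3 was the richest in myelin genes and the poorest in immune genes, skeletal muscle markers reached 5000 and 4440 CPM in FNI+I-125 replicates 1 and 2 but 52.8 CPM in replicate 3, and KRT5, a keratin of basal epithelium, held 10309 counts in FNI replicate 1 and 16153 in FNI+I-125 replicate 3. In such bulk samples, fewer cells of a type and less RNA per cell cannot be told apart.

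With the seed, the transcript of the protease ADAM17 was 1.66-fold higher, and the 3 receptor transcripts had lower means, with a log2 fold change of -0.73 for ERBB2, -0.84 for ERBB3 and -0.54 for EGFR. NRG1 was measured at 1.29 and BACE1 at -0.28 on the same scale, with intervals that included 0, and HBEGF was close to 0 at -0.04. Of the 8 genes, 7 passed the filter on low counts, and AREG did not. None of the 7 passed edgeR's quasi-likelihood test at a Benjamini-Hochberg adjusted p under 0.05, nor did any other gene, so that 0% of the 14003 genes tested were called with that threshold and a |log2 FC| of 1.5 or more. At an unadjusted p under 0.05, ADAM17 was higher, beside 9.23% of all genes in that direction, and ERBB2 was lower, beside 7.73% of all genes. ADAM17 was also the one gene of the 8 with no overlap between the groups, and it lay in the higher direction, as did 14.8% of all genes, while 12.3% of all genes lay apart in the lower direction. By DESeq2's Wald test at an adjusted p under 0.05, 1 of the 7 was called, ADAM17, where 3.83% of all genes were called higher and 2.84% lower. None of the 7 was called by limma-voom at an adjusted p under 0.05. These shares are the background against which 1 or 2 genes of 7 have to be read.

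**Figure D1:**
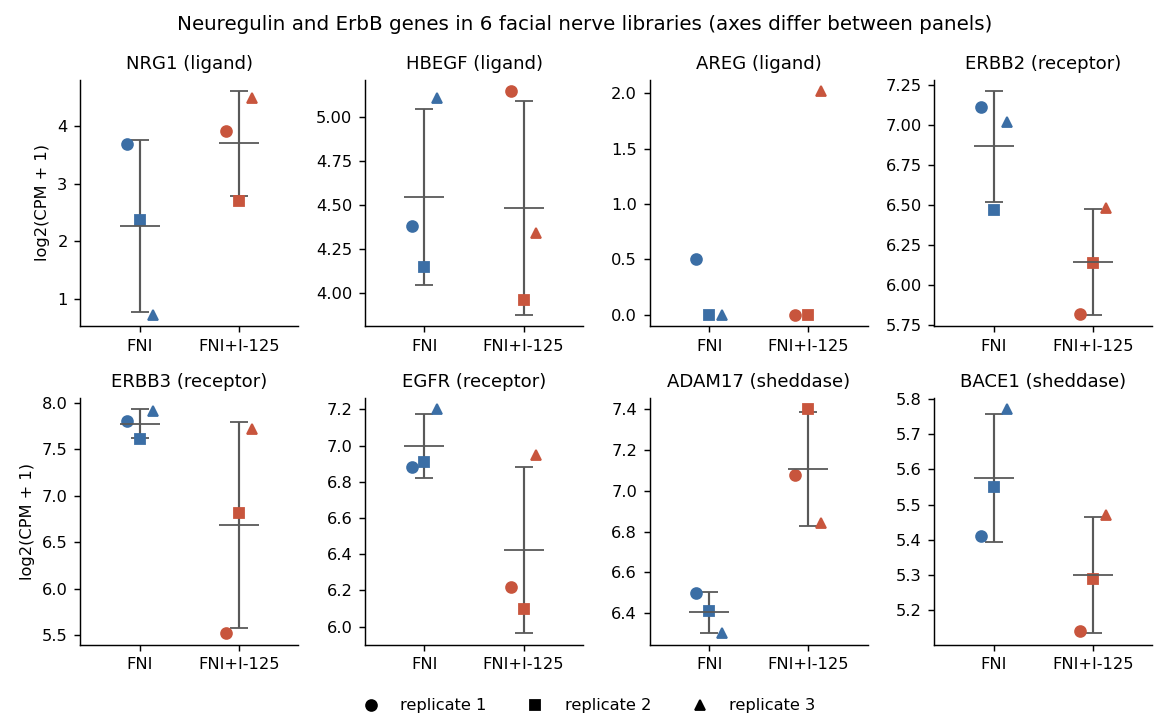
Normalized level, as log2(CPM + 1), of the 8 genes in the 3 FNI and 3 FNI+I-125 libraries, each panel with its own axis. There is 1 point per library, with the group mean and SD on the log2 scale, except for AREG, shown as points. The ADAM17 points of FNI+I-125 (6.84 to 7.4) lie above those of FNI (6.3 to 6.5), while the groups overlap in every other panel.

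Among the receptors, ERBB2, the kinase partner shared by the other receptors, stood at 138, 87.6 and 128 CPM in FNI replicates 1, 2 and 3, and at 55.6, 69.8 and 88.2 CPM in FNI+I-125 replicates 1, 2 and 3. The groups met at a narrow overlap, since the highest FNI+I-125 library lay just above the lowest FNI library. The means were 118 ± 26.6 and 71.2 ± 16.4 CPM (SD, n = 3 each). The log2 fold change was -0.73 with an SE of 0.24 and a 95% interval of -1.33 to -0.13. Its unadjusted p was 0.0248, and its adjusted p was 0.28 by edgeR's quasi-likelihood test. The unadjusted p stayed under 0.05 without FNI replicate 2 (0.0102) or FNI+I-125 replicate 3 (0.0163), and lay between 0.056 and 0.0801 when any of the other 4 libraries was left out.

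ERBB3, the neuregulin-binding receptor of Schwann cells, stood at 223, 195 and 239 CPM across FNI libraries, as against 45.0, 112 and 210 CPM across FNI+I-125 libraries. The FNI values lay close together at 219 ± 22.4 CPM (SD, n = 3), whereas the FNI+I-125 values spread widely at 122 ± 82.9 CPM, with replicate 1 far below and replicate 3 within the FNI range. The log2 fold change was -0.84, with an SE of 0.52, a 95% interval of -2.11 to 0.43 and an adjusted p of 0.408 by edgeR's quasi-likelihood test. FNI+I-125 libraries decided its size. Without replicate 3 the log2 fold change was -1.48 with an unadjusted p of 0.0173, and without replicate 1 it was -0.44 with an unadjusted p of 0.202.

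EGFR, the receptor for HBEGF and AREG, was measured at 117, 119 and 146 CPM in the FNI group and at 73.4, 67.4 and 122 CPM in the FNI+I-125 group. FNI+I-125 replicate 3 again lay within the FNI range, and the other FNI+I-125 libraries lay below it. The means were 127 ± 16.1 and 87.7 ± 30.2 CPM (SD, n = 3 each), and the log2 fold change was -0.54 with an SE of 0.26 and a 95% interval of -1.17 to 0.09. The adjusted p was 0.327 by edgeR's quasi-likelihood test, and the unadjusted p was 0.0826. Without FNI+I-125 replicate 3 the log2 fold change was -0.86 and the unadjusted p was 0.00335. FNI+I-125 replicate 3 was thus the library with the highest level of all 3 receptors within its group. It also differed from FNI+I-125 replicates 1 and 2 in its skeletal muscle markers (52.8 CPM against 5000 and 4440) and in its epithelial markers (1580 CPM against 47.5 and 40.0), whose part in the receptor levels was not tested. With 3 libraries a group, the exact permutation test cannot go below a p of 0.1, and it gave 0.2 for ERBB2, 0.2 for ERBB3 and 0.3 for EGFR (two-sided).

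**Figure D2:**
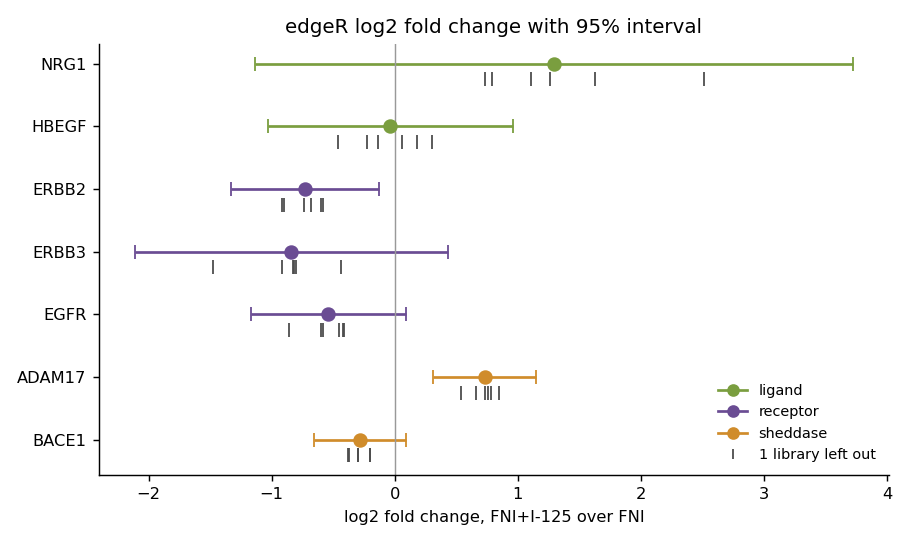
Log2 fold change (FNI+I-125 against FNI, edgeR) of the 7 genes that passed the filter, with its 95% interval as a bar, and the values obtained when each library was left out in turn as small points. The intervals of ADAM17 (0.31 to 1.15) and ERBB2 (-1.33 to -0.13) leave out 0, and that of NRG1 is the widest (-1.14 to 3.72).

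Since ErbB3 is made by Schwann cells in nerve, its level was set beside that of the Schwann cell markers in each library. SOX10, the transcription factor that defines the Schwann lineage, had log2 CPM values of 8.11, 8.12 and 7.84 across FNI libraries, as against 5.79, 7.07 and 7.80 across FNI+I-125 libraries. ERBB3 followed the same order within the FNI+I-125 group, at 5.52, 6.82 and 7.72, after 7.81, 7.61 and 7.91 in the FNI group. The log2 ratio of ERBB3 to SOX10 was -0.30, -0.50 and 0.06 across FNI libraries, as against -0.27, -0.25 and -0.08 across FNI+I-125 libraries. The difference between the group means was 0.05, with an exact permutation p of 0.8 (two-sided), and the choice of SOX10 alone was made after the data had been seen. Relative to the mean of all 13 markers, the mean of ERBB3 was 0.51 higher with the seed on the log2 scale (exact permutation p of 0.5). That value was 0.07 without FNI+I-125 replicate 3, 0.31 without FNI replicate 3 and 0.82 without FNI+I-125 replicate 2. Relative to the 8 markers that are not myelin genes the difference was -0.34 (exact permutation p of 0.3), so the sign depended on the myelin genes in the list. The part that Schwann cell content has in the ERBB3 difference was not tested, and the markers moved with it in the way these ratios give.

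**Figure D3:**
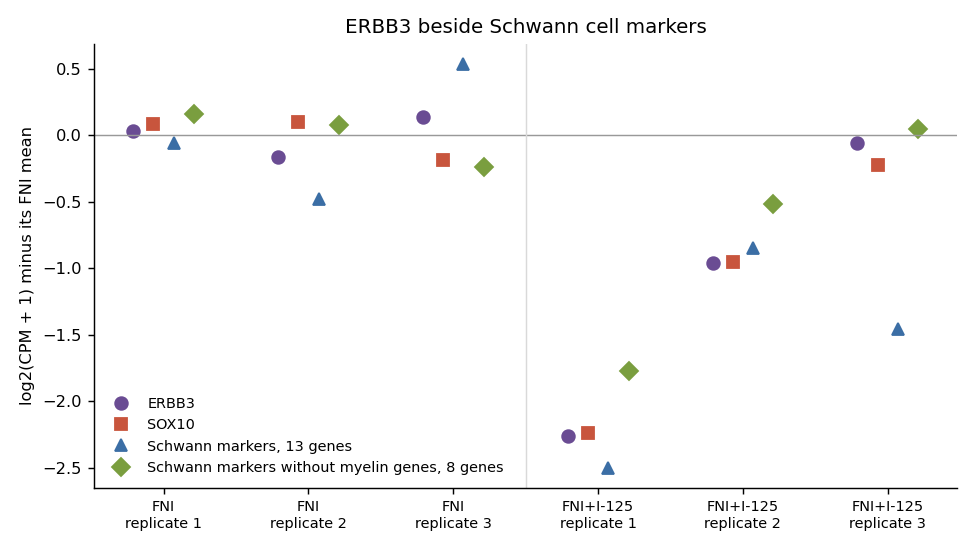
Level of ERBB3, SOX10, the mean of the 13 Schwann cell markers and the mean of the 8 markers that are not myelin genes. Each is given as log2(CPM + 1) after subtracting its own mean over the FNI libraries. ERBB3 and SOX10 are lowest in FNI+I-125 replicate 1, and in FNI+I-125 replicate 3 both are close to their FNI values.

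The means of the proteases lay in opposite directions. ADAM17, which releases HBEGF, AREG and tumour necrosis factor from the membrane, stood at 89.3, 83.8 and 77.7 CPM across FNI libraries, as against 134, 168 and 114 CPM across FNI+I-125 libraries. Every FNI+I-125 library lay above every FNI library, with means of 83.6 ± 5.77 and 139 ± 27.7 CPM (SD, n = 3 each). The log2 fold change was 0.73, with an SE of 0.17 and a 95% interval of 0.31 to 1.15. The unadjusted p of 0.00541 ranked 225 among the 14003 genes, and the adjusted p was 0.28 by edgeR's quasi-likelihood test. DESeq2's Wald test gave a log2 fold change of 0.72 with an adjusted p of 0.0185. The exact permutation p was 0.1, the smallest that 3 against 3 libraries allow. Leaving out each library in turn kept the log2 fold change between 0.54 and 0.85 and the unadjusted p between 0.00382 and 0.0231. Markers of neutrophils and macrophages, cells in which ADAM17 is also active, had a higher sum in the same libraries. Of the 11 markers, 5 were higher at an unadjusted p under 0.05, beside 9.23% of all genes, and none was at 0 in any library. In FNI+I-125 replicate 2, where ADAM17 was highest, the neutrophil genes CSF3R, S100A8 and S100A9 lay below FNI replicate 1. PTPRC (162 CPM), CD68 (497), CSF1R (345), CD14 (266), ITGAM (73.3), SPI1 (80.7) and TYROBP (233) were instead highest in that library. AIF1 stood at 57.5 CPM there and was highest in FNI+I-125 replicate 1, at 62.7 CPM. The part of these cells in the ADAM17 difference was not tested.

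BACE1, the protease that cuts axonal neuregulin 1 before myelination, was measured at 41.4, 45.8 and 53.7 CPM in the FNI group and at 34.2, 38.2 and 43.3 CPM in the FNI+I-125 group. The highest FNI+I-125 library lay within the FNI range. The means of 47.0 ± 6.21 and 38.6 ± 4.58 CPM (SD, n = 3 each) gave a log2 fold change of -0.28 with an SE of 0.15. The adjusted p was 0.355 by edgeR's quasi-likelihood test, and the 95% interval was -0.66 to 0.09. The difference between the proteases was compared within each library as the log2 ratio of ADAM17 to BACE1, which is read for its change alone because counts are not scaled to gene length. It was 1.09, 0.86 and 0.53 across FNI libraries, as against 1.94, 2.11 and 1.37 across FNI+I-125 libraries. The groups did not overlap, and the ratio was 0.98 higher with the seed (exact permutation p of 0.1, adjusted p of 0.7 over the 7 pairs of genes compared). The differences for the other 6 pairs, within the ligands and within the receptors, had exact permutation p-values of 0.4 to 0.7. In the pairs with AREG, which had 0 counts in most libraries, the value there is just the log2(CPM + 1) of NRG1 or HBEGF. Among the receptors the group means of the ratio of ERBB2 to ERBB3 differed by 0.37, that of ERBB2 to EGFR by -0.14 and that of ERBB3 to EGFR by -0.51, and in all of these the groups overlapped. The receptor ratios rested on few libraries. Without FNI+I-125 replicate 1, ERBB3 to EGFR stood at -0.03 and ERBB2 to ERBB3 at -0.05, and without FNI replicate 1, ERBB2 to EGFR stood at 0.04.

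Among the ligands, NRG1 varied widely between libraries, with log2 SDs of 1.49 (FNI) and 0.92 (FNI+I-125). NRG1 stood at 12.0, 4.16 and 0.65 CPM across FNI libraries, with 205, 66 and 11 counts. Across FNI+I-125 libraries it stood at 14.2, 5.48 and 21.4 CPM, with 217, 90 and 365 counts. FNI replicate 3, the library richest in myelin genes, held the lowest level, and the remaining FNI values lay within or below the FNI+I-125 range. The means were 5.6 ± 5.81 and 13.7 ± 7.99 CPM (SD, n = 3 each). The log2 fold change of 1.29 had an SE of 0.99 and a 95% interval of -1.14 to 3.72, with an adjusted p of 0.494 by edgeR's quasi-likelihood test. It was 0.73 without FNI replicate 3 and 2.51 without FNI replicate 1, so that a difference of the size measured was not detectable against this spread. The counts do not separate the isoforms of NRG1.

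HBEGF, the heparin-binding EGFR ligand that is induced in many cell types by injury, was measured at 19.8, 16.8 and 33.6 CPM in the FNI group and at 34.5, 14.6 and 19.3 CPM under FNI+I-125. The groups overlapped over nearly their whole range, with 1 high library in each. The means were 23.4 ± 8.96 and 22.8 ± 10.4 CPM (SD, n = 3 each), and the log2 fold change was -0.04 with an SE of 0.41. Its adjusted p was 0.968 by edgeR's quasi-likelihood test, with a 95% interval of -1.03 to 0.96, and the sign of the change turned when FNI replicate 3 or FNI+I-125 replicate 2 or 3 was left out.

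AREG, the EGFR ligand amphiregulin, had 7, 0 and 0 counts across FNI libraries, as against 0, 0 and 52 counts across FNI+I-125 libraries. A count of 0 allows up to 3 counts, which is 0.176 to 0.196 CPM here and covers counting error only. AREG was thus found in 1 library of each group, FNI replicate 1 and FNI+I-125 replicate 3, the same libraries in which KRT5 was high. KRT5 and the genes below were chosen after their values had been seen, and not all epithelial markers followed them. AQP5, a water channel of salivary acini, had 1731, 6203 and 108 counts across FNI libraries, as against 221, 17 and 6. CDH1, the epithelial cadherin, was highest in FNI replicate 3 with 2438 counts. EPGN, the EGFR ligand epigen, had 48, 0 and 0 counts against 2, 1 and 113. CBLC, an ErbB-directed ubiquitin ligase of epithelia, had 86, 3 and 1 counts against 3, 1 and 58. GRB7, an adaptor that binds ErbB2, was also highest in these libraries within each group but was counted in all 6, with 106, 56 and 5 counts against 13, 6 and 173. The summed level of 9 epithelial and salivary gland markers ran from 156 to 1240 CPM in the FNI group and from 40.0 to 1580 CPM in the FNI+I-125 group, and the part of epithelium in the AREG counts was not tested.

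**Figure D4:**
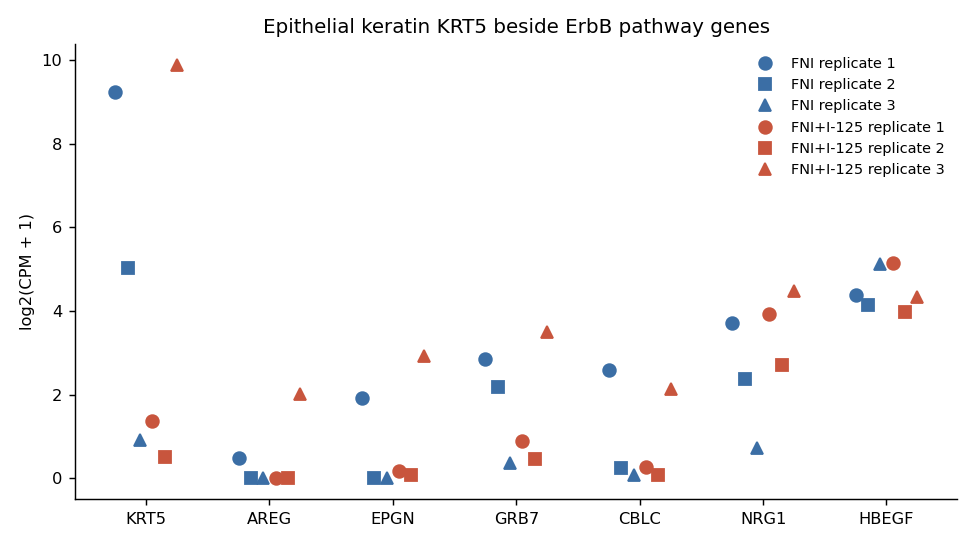
Level per library, as log2(CPM + 1), of the keratin KRT5 and of ErbB pathway genes chosen after their values had been seen. KRT5, AREG, EPGN and CBLC are highest within their group in the libraries FNI 1 and FNI+I-125 3. The AREG level in FNI 1 is low, at 7 counts (0.41 CPM).

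The wider pathway was followed with lists of other ligands, the remaining receptor, other proteases and their regulators, adaptors and kinases, inhibitors, Schwann cell target genes and ERK target genes. Of the 98 genes listed, 93 were in the files and 87 passed the filter. At an unadjusted p under 0.05, 7 were higher and 9 lower, or 18.4% of those tested beside 17% of all genes, and their median log2 fold change was 0.02 beside 0.01 for all genes. No gene of these lists passed an adjusted p under 0.05 by edgeR. When each library was left out in turn, the share at an unadjusted p under 0.05 ran from 10.1% to 23.6% for these lists and from 9.7% to 15.5% for all genes. The lists as a whole were therefore near the background of these libraries, and the genes below are given as values, with adjusted p-values of 0.28 to 0.286 by edgeR's quasi-likelihood test.

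Among the proteases and regulators, 2 of 9 genes tested were higher and 1 lower at an unadjusted p under 0.05, with a median log2 fold change of -0.31. RHBDF2, the rhomboid partner that brings ADAM17 to the surface of immune cells, had 702, 642 and 321 counts across FNI libraries, as against 1825, 1418 and 1013 across FNI+I-125 libraries. The groups did not overlap, and the log2 fold change was 1.40 with an SE of 0.39 and an unadjusted p of 0.0111, which stayed under 0.05 whichever library was left out. RHBDF1, its relative with the same role in many tissues, had a log2 fold change of -0.40 (SE 0.13, unadjusted p of 0.023), and its p rose above 0.05 without FNI replicate 3, FNI+I-125 replicate 1 or FNI+I-125 replicate 3. ADAM12, another metalloprotease that cuts HBEGF, had 1436, 1374 and 319 counts against 9505, 2641 and 4041. Its log2 fold change was 2.43 with an SE of 0.76, and 1.66 with an unadjusted p of 0.0581 without FNI+I-125 replicate 1. The adjusted p from DESeq2's Wald test was 0.0241 for RHBDF2, 0.0176 for ADAM12 and 0.0797 for RHBDF1. By that test, 3.83% of all genes were higher and 2.84% lower at an adjusted p under 0.05. ADAM17 and RHBDF2, protease and partner, were both higher with no overlap between the groups. Of the 11 neutrophil and macrophage markers, 8 also lay apart in the higher direction, beside 14.8% of all genes. The neutrophil genes CSF3R, S100A8 and S100A9 overlapped and were highest in FNI+I-125 replicate 1. The part of these cells in the RHBDF2 difference was not tested.

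ERBB4, the remaining receptor of the family, had few counts, with 39, 24 and 233 counts across FNI libraries, as against 7, 24 and 17 across FNI+I-125 libraries. The log2 fold change was -2.58 (SE 0.99, unadjusted p of 0.0398) and was -0.97 without FNI replicate 3. The unadjusted p rose above 0.05 without FNI replicate 3 or any of the FNI+I-125 libraries. None of the 4 other ligands that passed the filter reached an unadjusted p under 0.05, and their median log2 fold change was 0.12.

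Of the 34 adaptors and kinases tested, 3 were higher and 4 lower at an unadjusted p under 0.05, with a median log2 fold change of 0.04. The phospholipase PLCG2, used mostly by blood cells, had a log2 fold change of 0.74 (SE 0.17), the kinase subunit PIK3CB 0.60 (SE 0.16) and the adaptor GRB2, which links receptors to Ras, 0.43 (SE 0.12). SHC3, a neural adaptor of the Shc family, had 38, 21 and 256 counts against 2, 5 and 9. Its log2 fold change was -4.23 with an SE of 1.16, and -2.45 without FNI replicate 3, where its count was highest. The unadjusted p of PLCG2 (0.00449), PIK3CB (0.00954) and SHC3 (0.0108) stayed under 0.05 whichever library was left out, and that of GRB2 (0.0119) was 0.0508 without FNI+I-125 replicate 2. Among the inhibitors and feedback genes, 1 of 22 was lower and none higher, with a median of 0.12. That gene was SPRY1, a feedback inhibitor of receptor tyrosine kinases, at -0.68 (SE 0.26, unadjusted p of 0.0406), and at -0.43 without FNI replicate 3. Its p rose above 0.05 without that library, FNI+I-125 replicate 1 or FNI+I-125 replicate 2.

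Of the 9 Schwann cell target genes tested, 7 had a log2 fold change below 0, as did 6842 of all 14003 genes, and the median was -0.40. All 13 Schwann cell markers, among them the target gene SOX10, also lay below 0, with a median of -0.93. The part of Schwann cell content in these values was not tested. Of the target genes, 1 was lower at an unadjusted p under 0.05. That gene was POU3F2, a transcription factor of the step towards myelination, with 126, 81 and 179 counts across FNI libraries, as against 13, 31 and 51 across FNI+I-125 libraries. The groups did not overlap, and the log2 fold change was -2.00 (SE 0.53, unadjusted p of 0.00939). Of the 8 ERK target genes, 2 were higher and 1 lower, with a median of 0.04. ETV1, a transcription factor driven by ERK signalling, had 960, 1775 and 2116 counts against 477, 814 and 736, a log2 fold change of -1.24 (SE 0.34). IER3, an early response gene, had a log2 fold change of 1.79 (SE 0.64) and 0.88 without FNI+I-125 replicate 1, where its level was highest. Its p of 0.0305 rose above 0.05 without that library, FNI replicate 2 or FNI replicate 3. FOSL1, a partner of Jun, had 14, 7 and 4 counts against 49, 33 and 12, a log2 fold change of 1.96 (SE 0.74). Its p of 0.0373 stayed under 0.05 only without FNI replicate 1 or FNI+I-125 replicate 3.

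**Figure D5:**
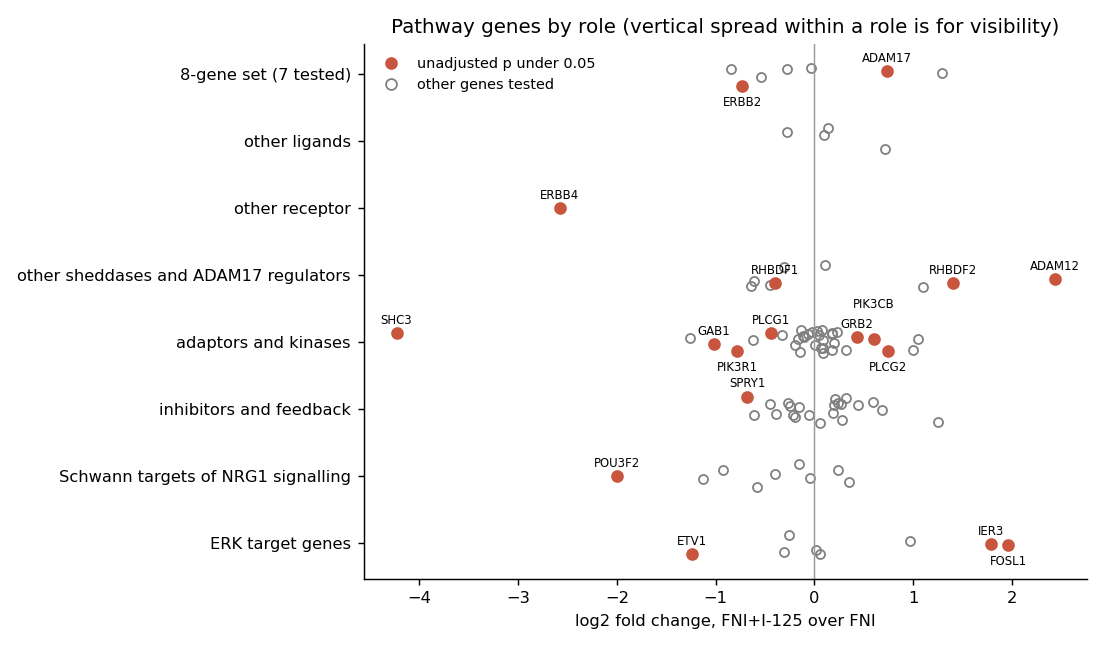
Log2 fold change (FNI+I-125 against FNI, edgeR) of the 87 other pathway genes tested, by role, and of the 7 genes tested from the set of 8. There is 1 point per gene, and filled points are those at an unadjusted p under 0.05. They are 16 of the other pathway genes, and ADAM17 and ERBB2 of the set. Every role with more than 1 gene has points on both sides of 0.

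For each of the 7 genes tested, the genes with the most similar level over the 6 libraries were found by the root mean square difference of log2 CPM after subtracting each gene's mean, among 12781 genes. For ERBB3 they were EGFL8 (0.083), PLXDC1 (0.099) and PLXNB3 (0.10). For ERBB2 they were TMEM144 (0.09), IQCD (0.111) and SETD4 (0.119), and for EGFR they were FBXO41 (0.061), ETNK2 (0.062) and CEP68 (0.077). ASAP1 (0.054), MAP7D1 (0.086) and PAPD4 (0.105) were nearest to ADAM17, and PTTG1IP (0.021), ASB3 (0.036) and PRDM11 (0.045) to BACE1. HBEGF lay nearest to PRR5 (0.097), KCNT2 (0.113) and CACNB2 (0.148). For NRG1 the nearest gene was at 0.299, and it was C1H11orf16, followed by C1QTNF3 (0.326) and SPINT1 (0.361). With 6 libraries and 12781 genes compared, such neighbours describe likeness in these libraries alone.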

How the data were processed

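The 6 libraries, 3 per group, were read as RNA-seq counts of rabbit facial nerve. The authors selected mRNA with oligo dT, made stranded libraries, sequenced them paired-end (Illumina HiSeq) and deposited the raw counts of each library in a file of its own, not normalized or pooled. The submitters' processing notes name HISAT2 and the build OryCun2.0, and the counting program and its strand setting are not given in the sources used here. Of the identifiers, 2992 are LOC numbers, and 542 were given a symbol by gene ID from the RefSeq table of assembly mOryCun1.1, which is another build, so no coordinates are printed. In 25 rows the name is a date. They entered the tests but go unnamed.

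Testing used R 4.3.3 and edgeR 4.0.16 (glmQLFit and glmQLFTest, TMM normalization, filterByExpr with a minimum count of 10, 14003 genes tested), FNI+I-125 against FNI, two-sided, and p-values were adjusted after Benjamini and Hochberg over all genes. The SE is the log2 fold change divided by the square root of F. For single values, log2(CPM + 1) was permuted exactly over the 20 assignments of the libraries. The scripts were tested on simulated counts. Total counts ran from 16031151 to 16798012, and the common biological coefficient of variation was 43%.

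The members and lists were chosen with earlier results of these data known. The text names all 8 genes, up to 4 genes per list with the smallest unadjusted p under 0.05, and the 3 genes nearest in pattern to each member. Alternatives were DESeq2 1.42.0, limma 3.58.1 (voom), upper-quartile normalization, library size only, muscle genes left out of the library sizes, other filters, glmQLFit with legacy = FALSE, each library left out in turn and a replicate block.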

Additional observations from a re-analysis of the deposited data

How the results depend on the processing

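Over 15 alternatives for each of the 7 genes tested, the direction was the same for all but HBEGF, which ranged from -0.46 to 0.30 when a library was left out (0.30 without FNI replicate 3, 0.18 without FNI+I-125 replicate 2, 0.06 without FNI+I-125 replicate 3). At the adjusted p and |log2 FC| threshold, DESeq2 called 236 genes higher and 163 lower, an unadjusted p with edgeR 388 and 306, and leaving out a library 0 to 38 and 0 to 2, with 38 without FNI+I-125 replicate 3. Upper-quartile normalization turned the split of all genes at an unadjusted p under 0.05 from 1293 higher and 1082 lower to 1008 and 1379. ADAM17 was the 1 member higher at an unadjusted p under 0.05 in every alternative, where 6.0% to 11.6% of all genes were higher. The members lower numbered 2 with a replicate block (ERBB2 and EGFR), beside 6.83% of all genes, and 0 to 3 when a library was left out. They were 0 without FNI replicate 1 (7.43% of all genes lower), FNI replicate 3 (5.24%), FNI+I-125 replicate 1 (3.71%) or FNI+I-125 replicate 2 (6.03%). Without FNI+I-125 replicate 3 they were 3 (ERBB2, ERBB3 and EGFR), beside 6.63% of all genes. The members without overlap were 2 with DESeq2's size factors (ERBB2 and ADAM17), and 1 to 5 when a library was left out. The shares of all genes without overlap in these settings are not given here. Groups lie apart more readily when a library is left out, so those counts cannot be set beside the 14.8% and 12.3% of the main setting. The ratio changes turned sign for ERBB2 to EGFR (-0.30 to 0.04), ERBB2 to ERBB3 (-0.05 to 0.72) and HBEGF to AREG (-1.24 to 0.18) when a library was left out, and for ERBB3 to the Schwann cell markers without the myelin genes (-0.34). AREG had 0 counts in most libraries, where its ratio gives the level of HBEGF alone. After subtracting group means, the correlations of same-numbered libraries were 0.052, -0.191 and -0.137. Those of differently numbered libraries ran from -0.293 to 0.305. The replicate numbers were therefore not treated as pairs in the main test, although these values cannot tell whether the samples were paired.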

Other observations

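The EGFR ligand betacellulin (BTC), which was not among the 8 genes, had 53, 60 and 31 counts across FNI libraries, as against 33, 24 and 181 across FNI+I-125 libraries. It was highest in FNI+I-125 replicate 3, as were AREG, EPGN and NRG1, but in contrast to AREG and EPGN it was counted in all 6 libraries. NRG2, a relative of NRG1, had 12, 10 and 8 counts against 2, 0 and 4.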
